A study of Papio anubis and Macaca fascicularis and Castor canadensis with 48 samples.

Results

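A set of 9 genes of foreign-compound (xenobiotic) metabolism was followed through the organs and species of a series on gene expression and mammalian longevity. The set was Cyp1a1, Cyp1a2, Cyp2e1, Cyp3a13, Cyp2g1, Sult1b1, Por, Nr1i2 and Ahr, each given by a mouse Ensembl gene ID. Of these, 7 were rows of the deposited table of 16816 genes; the IDs given for Cyp1a2 and Cyp3a13 were not among its rows, and those genes were not analysed here. The rows used were ENSMUSG00000032315 (Cyp1a1), ENSMUSG00000025479 (Cyp2e1), ENSMUSG00000049685 (Cyp2g1), ENSMUSG00000029269 (Sult1b1), ENSMUSG00000005514 (Por), ENSMUSG00000022809 (Nr1i2) and ENSMUSG00000019256 (Ahr). The members were chosen by their levels per species and organ over all 48 libraries, in CPM (the counts of a gene scaled to library depth, per M counts). Every level and fold change of a member is therefore given as a description with its spread, without a test.

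The libraries came from male wild-type young adults of 8 species. In the collection made at a primate research center (39 libraries), American beaver (Castor canadensis) gave 2 brains and 2 livers, baboon (Papio anubis) gave 6 brains, 6 kidneys and 6 livers, and long-tailed macaque (Macaca fascicularis, called macaque below) gave 6 cerebella, 5 kidneys and 6 livers. An earlier collection (9 libraries) gave 1 kidney and 1 liver of American black bear (Ursus americanus), 1 brain and 1 liver of white-footed mouse (Peromyscus leucopus), 2 livers of chipmunk (Tamias sibiricus), 2 livers of sugar glider (Petaurus breviceps) and 1 liver of tube-nosed bat (Murina leucogaster). Groups of 1 library have no replicates. No treatment is named for any animal, and no label says that animals were pooled. For every species of the earlier collection, species and collection cannot be told apart.

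Cytochrome P450 enzymes sit in the endoplasmic reticulum of liver cells and oxidise drugs, pollutants and endogenous lipids, with electrons that NADPH-cytochrome P450 reductase, the product of Por, hands to them. Sulfotransferases such as SULT1B1 attach a sulfate group to phenols and thyroid hormones, which makes them more soluble. The sensors are transcription factors that bind foreign compounds: the aryl hydrocarbon receptor (Ahr) induces Cyp1a1 and its relatives, and the pregnane X receptor (Nr1i2) induces members of the CYP3A and CYP2 families. Liver is known as the main site of this system, with kidney and intestine next.

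The deepest library was a macaque liver with 26.8 M counts, and the shallowest was the brain of the white-footed mouse with 6.33 M. The CPM of most genes was lower in liver than in the other organs. Over the genes with a mean of at least 1 CPM, the median difference in log2(CPM + 1) was 1.32 for baboon kidney minus liver, 1.35 for baboon brain minus liver, 1.16 for macaque kidney minus liver, 1.38 for macaque cerebellum minus liver and 1.34 for beaver brain minus liver. Fitted log2 fold changes below use TMM factors, which centre the bulk of the genes near 0, and for organs against liver they run further below 0 than ratios of the CPM beside them. The organ labels could not be checked against marker genes, because no source used here pairs the other rows with gene names. In whole-organ RNA, fewer cells of a type and less RNA per cell cannot be told apart.

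**Figure D1:**
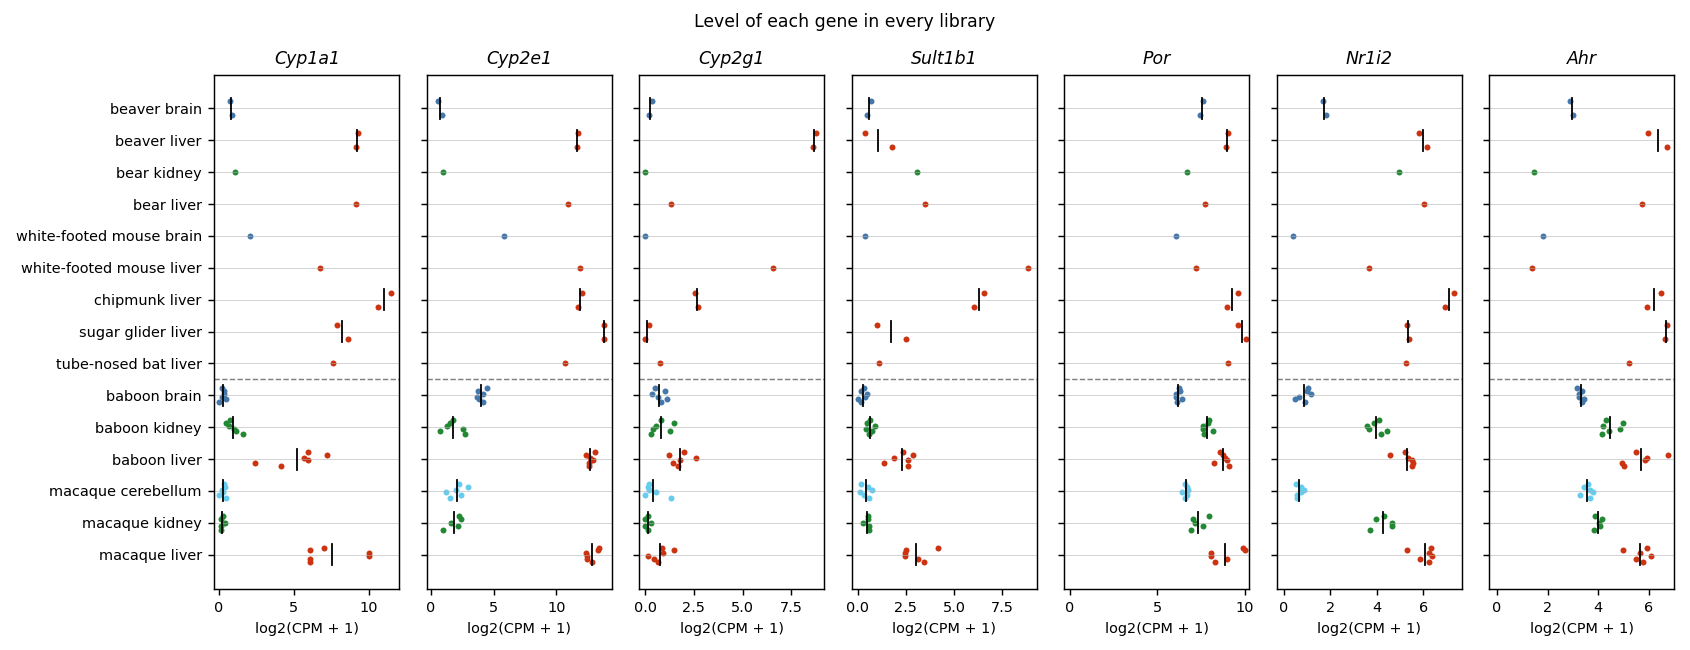
Level of each of the 7 genes in every library as log2(CPM + 1), with groups down the page and organs by colour (brain dark blue, cerebellum light blue, kidney green, liver red). Each point is a library, the black line is the group mean where there are 2 or more libraries, and the dashed line divides the other species above from the primates below. Cyp2e1 separates every liver from every other organ, and Cyp2g1 and Sult1b1 are high in the livers of a few species.

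Cyp1a1, an oxidase of polycyclic aromatic hydrocarbons and the classical target of the aryl hydrocarbon receptor, was present in the livers of all 8 species, was higher in liver than in the other organs of the 5 species with another organ, and differed widely between livers. Its CPM was 0.380 at the lowest, 0.818 at the median and 2.09 at the highest in baboon kidney (n = 6), against 4.19, 55.0 and 149 in baboon liver (n = 6). Baboon brain held 0 to 0.380 CPM, from 0 to 6 counts a library. All baboon livers lay above all baboon kidneys and brains. The fitted log2 fold change against liver was -7.29 ± 0.73 in kidney and -9.61 ± 0.87 in brain (± standard error, SE, from the edgeR fit of all baboon libraries).

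In macaque the 5 kidneys held 0.0951, 0.103, 0.115, 0.215 and 0.335 CPM of Cyp1a1, from 2 to 6 counts each. The 6 macaque livers held 66.01, 66.4, 66.7, 130, 1012 and 1041 CPM. Livers 3 and 4 were the highest pair, with no liver between 130 and 1012 CPM. The fitted log2 fold change was -12.41 ± 1.22 for macaque kidney and -12.30 ± 1.11 for macaque cerebellum against liver. With the replicate number as a block, the kidney value was -11.39. Beaver brain held 0.637 and 0.787 CPM against 609 and 559 CPM in beaver liver, a log2 fold change of -11.03 ± 0.25 (n = 2 each). Bear kidney held 1.10 CPM (exact binomial 95% interval 0.475 to 2.17) against 571 CPM in the liver of that species (554 to 589), and white-footed mouse brain held 3.16 CPM (1.52 to 5.81) against 106 CPM in its liver (98.5 to 115). These intervals, and all others given for single libraries, are Clopper-Pearson intervals over read pairs and cover counting error only.

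Chipmunk liver had the highest Cyp1a1 level of the 21 livers, 2840 and 1532 CPM, above all 12 primate livers. Its fitted log2 fold change over the mean of the baboon and macaque livers was 3.55 ± 0.85. Beaver liver and the bear liver, at 584 CPM ± 35.0 (SD, n = 2) and 571 CPM, lay above 10 of the 12 primate livers and below macaque livers 3 and 4. Sugar glider liver (231 and 396 CPM) and tube-nosed bat liver (197 CPM, 184 to 210) also lay above the same number of primate livers and below the same pair on CPM. On the TMM scale of the 21 livers the bat liver was lower, at 124, inside the primate range of 4.29 to 1070. In the order of group means, macaque liver overlapped both beaver and bear liver above it and sugar glider liver below it. CYP1A1 and CYP1A2 are near-identical in part of their sequence. Since the table has no row for the Cyp1a2 ID and no source used here says how shared reads were assigned, a share of CYP1A2 reads in these counts was not tested.

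Between the primates, Cyp1a1 had 56.9 CPM ± 50.8 in baboon liver against 397 CPM ± 488 in macaque liver (SD, n = 6 each). The log2 fold change was -2.68 ± 0.95, and the livers of the species overlapped. The medians were closer, at 55.0 and 98.2 CPM. Macaque livers 3 and 4 held 1012 and 1041 CPM. The other macaque livers, at 66.01 to 130 CPM, lay inside the baboon range of 4.19 to 149 CPM. In kidney the fold change had the other sign. All 6 baboon kidneys (0.380 to 2.09 CPM) lay above all 5 macaque kidneys (0.0951 to 0.335 CPM), a log2 fold change of 2.41 ± 0.54. These kidney levels rest on 6 to 34 counts a library in baboon and 2 to 6 in macaque. The lowest baboon kidney and the highest macaque kidney each had 6 counts. Their 95% intervals overlapped (0.0783 to 1.11 and 0.069 to 0.978 CPM), so the nearest libraries were not apart at this depth. Within the baboons the replicate number with the highest liver level, number 2 at 149 CPM, had the lowest kidney level, 0.380 CPM. The numbers with the lowest liver levels, number 5 at 4.19 CPM and number 6 at 16.8 CPM, had the highest kidney levels, 1.18 and 2.09 CPM. Macaque did not follow this order: number 3, with 1012 CPM in liver, had the highest kidney level, 0.335 CPM. A relation between liver and kidney levels was not tested.

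Cyp2e1 encodes the P450 that oxidises ethanol, acetone and small solvents, and it showed the widest margin between liver and the other organs of baboon, macaque and beaver among the 7 genes. It alone held 0.511% to 0.849% of all counts in baboon livers and 0.533% to 1.09% in macaque livers. Baboon kidney held 0.645, 2.15 and 5.66 CPM (lowest, median and highest of 6), against 5108, 6368 and 8489 CPM in baboon liver. Macaque kidney held 0.931 to 4.36 CPM (n = 5), against 5332 to 10861 CPM in macaque liver (n = 6). The log2 fold change of kidney against liver was -12.63 ± 0.53 in baboon and -12.55 ± 0.62 in macaque, and no kidney came near a liver.

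In the nervous system Cyp2e1 was not at 0. Baboon brain held 12.1 to 20.9 CPM (mean 15.4 ± 3.36, SD, n = 6), above all baboon kidneys, and macaque cerebellum held 1.37 to 6.89 CPM (n = 6), which overlapped the macaque kidneys. White-footed mouse brain held 55.6 CPM (47.7 to 64.5), against 3666 CPM in its liver (3620 to 3710), the highest brain level in the series. Both beaver brains were lower, at 0.510 and 0.853 CPM from 8 and 13 counts, against 3299 and 3176 CPM in beaver liver. A different part of the nervous system was sampled in macaque, so baboon brain and macaque cerebellum differ in species and region at once.

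Among livers, Cyp2e1 averaged 13833 CPM ± 1.98 in the 2 sugar gliders (SD), above all 12 primate livers on CPM. On the TMM scale of the 21 livers the sugar glider livers held 10300 and 10600, inside the primate range of 5130 to 10800. Beaver (3237 CPM ± 87.2, SD, n = 2) and chipmunk (3786 CPM ± 502, n = 2) lay below all 12 primate livers on both scales, with log2 fold changes of -1.21 ± 0.28 and -1.16 ± 0.28 against the primate mean. The bear liver (1964 CPM, 1930 to 2000) and the tube-nosed bat liver (1672 CPM, 1630 to 1710) were also below all primate livers on both scales. The white-footed mouse liver was below them on CPM but inside their range on the TMM scale, at 7550. Baboon and macaque livers did not separate, with 6679 CPM ± 1165 and 7450.3 CPM ± 2400 (SD, n = 6 each) and a log2 fold change of -0.04 ± 0.21. The sign of this small value changed when single livers were left out.

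Cyp2g1 is known in rodents and rabbits as a P450 of the olfactory mucosa, and in humans the gene is a pseudogene. Here the counts under its mouse ID were high in the livers of beaver and white-footed mouse. Whether they include reads of related genes was not tested. Beaver liver held 433 and 384 CPM against 0.255 and 0.131 CPM in beaver brain, a log2 fold change of -12.34 ± 0.32 for brain against liver. The white-footed mouse liver held 94.8 CPM (87.4 to 103), and the brain of that species had 0 counts, which allows up to 0.948 CPM. No other library of the series exceeded the 5.61 CPM of a chipmunk liver.

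The remaining livers showed low levels of Cyp2g1. Chipmunk had 4.91 and 5.61 CPM and overlapped the 6 baboon livers, which ranged from 1.33 to 5.02 CPM with a median of 2.36. Macaque liver held 0.0880 to 1.81 CPM, the bear liver 1.47 CPM (0.734 to 2.63) and the tube-nosed bat liver 0.694 CPM (0.143 to 2.03). The 2 sugar glider livers held 2 counts (0.161 CPM, 0.00408 to 0.898) and 0 counts, which allows up to 0.500 CPM. Beaver, a rodent like the chipmunk, had a log2 fold change of 8.08 ± 0.40 over the primate mean, while chipmunk had 1.65 ± 0.48. The 6 baboon kidneys held 0.246 to 1.77 CPM (4 to 28 counts), against 0 to 0.223 CPM in the 5 macaque kidneys (0 to 4 counts). The 2 macaque kidneys at 0 counts allow up to 0.344 and 0.285 CPM, above the lowest baboon kidney, so the species were not apart at this depth. No source used here says how the reads of 8 species came to be counted under mouse gene IDs. A species difference in these counts can therefore include a difference in annotation or mapping, here and in every comparison of species.

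Sult1b1, the sulfotransferase of the set, was highest in 2 rodents. The white-footed mouse liver held 458 CPM (441 to 475) and the chipmunk livers held 90.6 and 63.4 CPM, all above the 12 primate livers, which ranged from 1.61 to 16.7 CPM. The chipmunk log2 fold change over the primate mean was 3.47 ± 0.47. Beaver, also a rodent, was at the other end with 0.278 and 2.44 CPM from 6 and 56 counts, so its replicates differed by 8.77-fold. Sugar glider livers were similarly apart, at 0.967 and 4.75 CPM from 12 and 57 counts. The tube-nosed bat liver held 1.16 CPM (0.376 to 2.70), from 10 counts, below the value of all 12 primate livers. Its interval overlapped that of the lowest, baboon liver 5 (1.61 CPM, 0.984 to 2.49), so the nearest libraries were not apart at this depth.

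Outside liver, Sult1b1 stayed under 1 CPM in every library except bear kidney. Bear kidney held 7.29 CPM (5.46 to 9.54) against 10.03 CPM in bear liver (7.89 to 12.6). It was 1.38-fold lower in kidney on CPM and 1.90-fold lower on the TMM scale of all 48 libraries. Baboon kidney held 0.331 to 0.855 CPM against 1.61 to 6.31 CPM in baboon liver, a log2 fold change of -4.34 ± 0.42 (n = 6 each). Macaque kidney held 0.223 to 0.517 CPM (n = 5) against 4.40 to 16.7 CPM in macaque liver (n = 6), a log2 fold change of -5.46 ± 0.49. Liver and kidney did not overlap in either primate.

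Por encodes an electron donor that the microsomal P450 enzymes share, and it was expressed in every library. Its kidney level differed less from liver than that of any other member, in baboon and in macaque. Baboon kidney held 195, 217 and 286 CPM (lowest, median and highest of 6), against 299, 439.7 and 540.4 CPM in baboon liver. Baboon brain held 64.7 to 83.4 CPM. The log2 fold change was -2.35 ± 0.15 for kidney and -4.02 ± 0.16 for brain against liver. All 3 baboon organs were apart on CPM, although kidney 5 (286 CPM) and liver 5 (299 CPM), of the same replicate number, nearly met.

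Macaque kidney held 119, 130.2, 138, 192 and 246 CPM of Por. The macaque livers held 262, 269, 304, 490.2, 955 and 1024 CPM. The lowest liver was above the highest kidney, and the log2 fold change was -2.97 ± 0.36 for kidney and -3.93 ± 0.35 for cerebellum against liver. Macaque liver was therefore wider (550.7 CPM ± 351, SD) than baboon liver (431 CPM ± 86.8), and their means differed by a log2 fold change of -0.22 ± 0.34, whose sign changed without macaque liver 1 or 2. Beaver brain held 196 and 174 CPM against 518 and 480.4 CPM in beaver liver. Among the other livers, bear (208 CPM) and white-footed mouse (148 CPM) lay below all primate livers on CPM but inside their range on the TMM scale, and no other species left that range on the TMM scale.

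Nr1i2, the pregnane X receptor, followed an order of liver, kidney and then nervous system. Baboon kidney held 10.997 to 20.4 CPM against 23.0 to 46.4 CPM in baboon liver, a log2 fold change of -2.78 ± 0.21 (n = 6 each). Macaque kidney held 12.01 to 24.02 CPM (n = 5) against 38.2 to 81.5 CPM in macaque liver (n = 6), a log2 fold change of -3.11 ± 0.23. Bear kidney held 29.7 CPM (25.9 to 34.0) against 65.1 CPM in bear liver (59.5 to 71.2). In all 3 species with a kidney, kidney lay below liver.

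Nervous tissue held little Nr1i2. Baboon brain had 0.380 to 1.26 CPM and macaque cerebellum 0.429 to 0.810 CPM, with log2 fold changes of -6.93 ± 0.27 and -8.28 ± 0.29 against liver. Beaver brain had 2.17 and 2.49 CPM against 55.3 and 70.8 CPM in beaver liver. Chipmunk liver held 158 and 120.3 CPM, above all 12 primate livers, a log2 fold change of 1.18 ± 0.23 over the primate mean. The white-footed mouse liver held 11.7 CPM (9.20 to 14.7), below all 12 primate livers. On the TMM scale of the 21 livers the primate range was 24.9 to 83.6. The white-footed mouse liver (24.1) and the tube-nosed bat liver (23.7) fell just below it, and the bear liver (86.5) just above it. These margins were small beside the CPM intervals of the livers (9.20 to 14.7, 32.2 to 44.0 and 59.5 to 71.2). No intervals were computed on the TMM scale, so these single livers are not called apart from the primates there. On CPM the bat and bear livers overlapped the primates. Baboon liver (39.0 CPM ± 8.72) and macaque liver (67.5 CPM ± 16.8) overlapped, with a log2 fold change of -0.69 ± 0.20.

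Ahr, the aryl hydrocarbon receptor, was measured in every library and varied less between organs than the P450 genes Cyp1a1 and Cyp2e1. Baboon kidney held 16.6, 19.5 and 30.6 CPM (lowest, median and highest of 6), against 29.9, 50.7 and 105 CPM in baboon liver. Kidney 2 (30.6 CPM) lay above liver 5 (29.9 CPM), so the organs overlapped on CPM. The log2 fold change was -2.76 ± 0.27, and on TMM-scaled CPM the organs were apart. Macaque kidney held 13.04 to 16.6 CPM (n = 5) against 30.2 to 66.8 CPM in macaque liver (n = 6), a log2 fold change of -3.01 ± 0.19, with no overlap on CPM. Brain and cerebellum were lower still, with log2 fold changes of -4.07 ± 0.29 in baboon, -3.66 ± 0.19 in macaque and -5.00 ± 0.35 in beaver against liver.

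The white-footed mouse liver stood apart for Ahr. It held 1.64 CPM (0.748 to 2.87), from 21 counts, against a primate liver range of 29.9 to 105 CPM, and on the TMM scale it held 3.37 against 29.2 to 114. The brain of the same species held 2.53 CPM (1.09 to 4.98), from 16 counts, and the intervals of brain and liver overlapped. Brain was 1.54-fold higher than liver on CPM and 1.19-fold lower on the TMM scale of all 48 libraries. Cyp1a1, the target of this receptor, had 106 CPM in that liver, above 8 of the 12 primate livers on CPM. Cyp1a1 in that liver lay inside the primate range on CPM (4.19 to 1041, median 66.2). On the TMM scale of the 21 livers it had 219, also inside the primate range (4.29 to 1070, median 66.1). Every other liver held at least 29.9 CPM, and sugar glider liver had the highest group mean, 101 CPM ± 3.18 (SD, n = 2). The tube-nosed bat liver held 35.9 CPM, inside the primate range on CPM and below it on the TMM scale (22.6). Bear kidney was also low in Ahr, at 1.79 CPM (0.952 to 3.06) against 52.1 CPM (47.1 to 57.6) in bear liver, 29.1-fold lower on CPM.

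**Figure D2:**
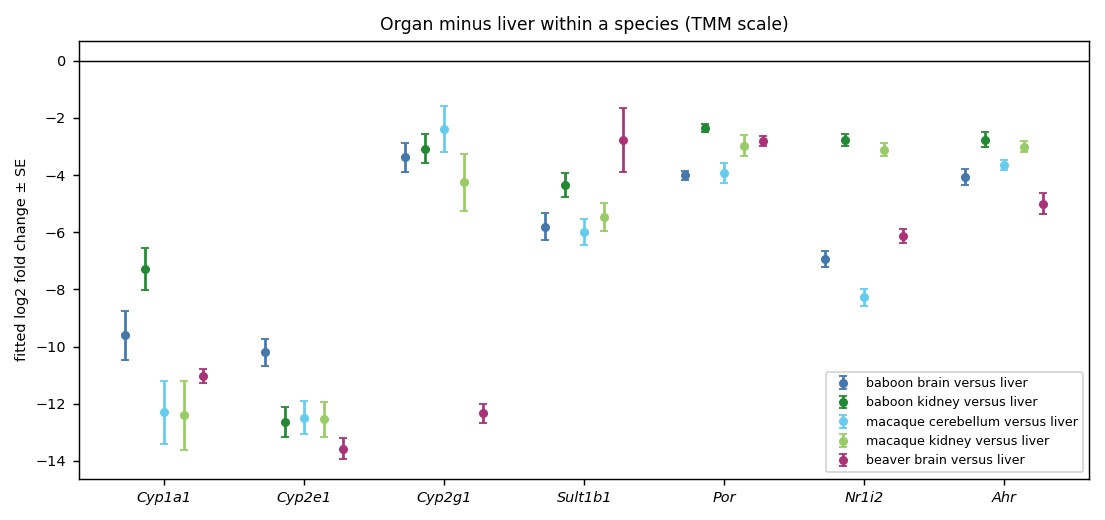
Fitted log2 fold change of each gene for brain, cerebellum or kidney against liver of the same species, with SE bars (edgeR, TMM scale; n = 6 per group in baboon, 6, 5 and 6 in macaque, 2 in beaver). All points lie below 0, from Cyp2e1 in beaver brain at -13.57 to Por in baboon kidney at -2.35.

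Counted over the set, the members lay lower outside liver. In baboon kidney 5 of the 7 were below every liver (Cyp1a1, Cyp2e1, Sult1b1, Por and Nr1i2), while 5.15% of the 13890 genes tested were so on CPM. On TMM-scaled CPM all 7 were below, beside 20.6% of genes. In baboon brain 7 of 7 were below every liver, beside 11.8% of genes. Since these levels chose the set, nothing is read from the comparison of these shares.

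The same count was 6 of 7 in macaque kidney (5.49% of 13927 genes), 6 of 7 in macaque cerebellum (12.2%) and 6 of 7 in beaver brain (15.1% of 13309 genes). The gene that overlapped was Cyp2g1 in both macaque organs and Sult1b1 in beaver brain. On TMM-scaled CPM all 7 were lower in beaver brain, beside 39.8% of genes. The fitted log2 fold change of Sult1b1 in beaver brain, -2.76 ± 1.12, was -3.62 without beaver liver 1 and -0.45 without beaver liver 2. That of Cyp2g1 in macaque kidney, -4.26 ± 1.00, was -4.89 without macaque kidney 3. Between baboon and macaque livers 0 of the 7 were apart, beside 12.5% of 11948 genes. Between their kidneys Cyp1a1 was apart on CPM and higher in baboon, beside 10.8% of 13082 genes that were higher. The nearest kidneys of the species had 6 counts each, with overlapping intervals. Cyp2g1 was apart only with 0 counts read as 0 CPM, and it did not pass the filter on low counts in that fit.

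Against the 12 primate livers, beaver was higher in Cyp2g1 and lower in Cyp2e1, beside 22.5% and 19.0% of 14371 genes. Chipmunk was higher in Cyp1a1, Sult1b1 and Nr1i2 (25.8% of genes) and lower in Cyp2e1 (17.1%). Sugar glider was higher in Cyp2e1 on CPM (31.6%), and in 0 members on the TMM scale (23.0% of genes). The remaining members of these species overlapped the primate livers. The species differed from the primates in different members, as the map of liver levels shows.

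**Figure D3:**
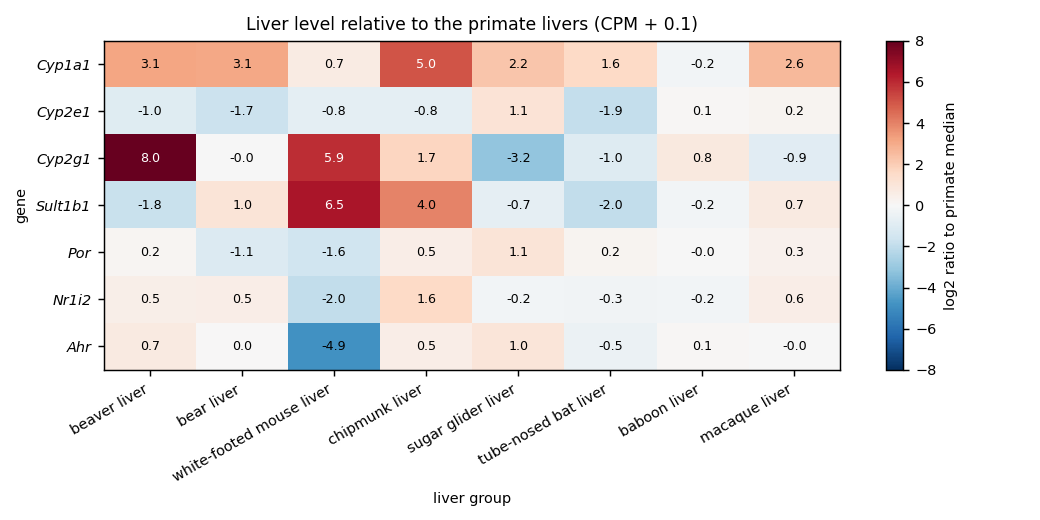
Mean liver level of each gene in each species as the log2 ratio to the median of the 12 primate livers, after adding 0.1 CPM to both; red is above and blue below. Cyp2g1 in beaver (7.99) and white-footed mouse (5.88), Sult1b1 in white-footed mouse (6.53) and Cyp1a1 in chipmunk (5.04) are the highest ratios, and Ahr in white-footed mouse (-4.87) is the lowest.

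Among members with a mean of at least 20 CPM, the spread between livers of a species was widest for Cyp1a1. In baboon liver the SD of its log2(CPM + 1) was 1.70, against a median SD of 0.236 over the 4184 genes with a mean of at least 20 CPM, and 99.3% of those genes had a smaller SD. In macaque liver its SD was 1.94, against a median of 0.272 over the genes passing the same minimum there, and 99.7% had a smaller SD. The highest baboon liver held 35.5-fold the lowest, and the highest macaque liver 15.8-fold the lowest. Por in macaque liver (SD 0.900, 96.3% of genes smaller) and Ahr in baboon liver (SD 0.663, 93.5% smaller) were also wide. Cyp2e1 was not, with 54.6% of genes smaller in baboon liver and 79.4% in macaque liver.

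**Figure D4:**
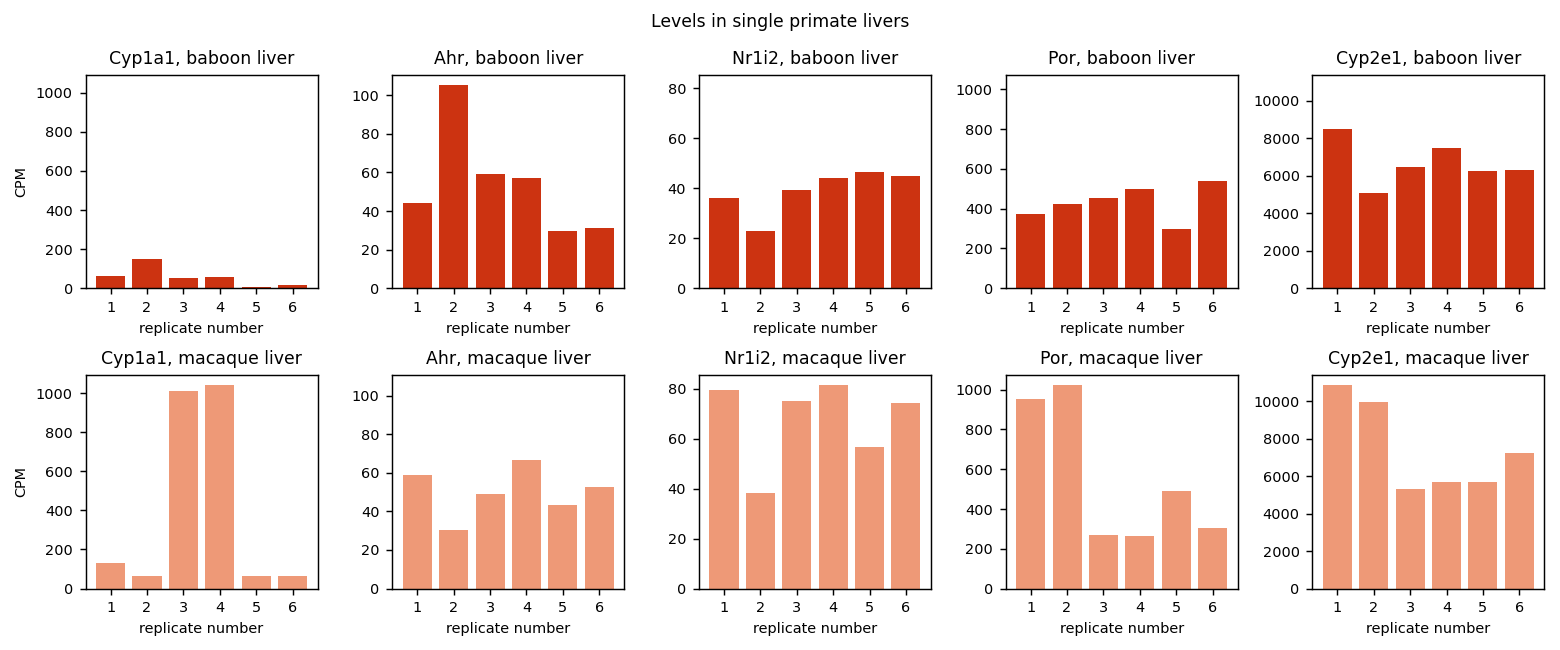
CPM of 5 genes in each of the 6 baboon livers (top) and 6 macaque livers (bottom), by replicate number; each bar is a library, and the vertical axis is shared down a column and starts at 0. Macaque livers 3 and 4 stand at 1012 and 1041 CPM of Cyp1a1, macaque livers 1 and 2 at 955 and 1024 CPM of Por, and baboon liver 2 at 105 CPM of Ahr.

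The levels of single livers show how members ran side by side. Baboon liver 2 had the highest Cyp1a1 (149 CPM) and the highest Ahr (105 CPM), with the lowest Nr1i2 (23.0 CPM) and the lowest Cyp2e1 (5108 CPM). Baboon liver 5 had the lowest Cyp1a1 (4.19 CPM), the lowest Ahr (29.9 CPM) and the highest Nr1i2 (46.4 CPM). In macaque, livers 3 and 4 with the high Cyp1a1 had the lowest Por levels (269 and 262 CPM), while their Ahr (48.9 and 66.8 CPM) lay within the range of the other macaque livers in liver 3 and above it in liver 4. Macaque livers 1 and 2 had the highest Por and the highest Cyp2e1 (10861 and 9951 CPM).

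Relations between members over the 6 livers of a species concern differences between libraries of 1 group, although the same libraries entered the choice of the set. Over 16 such relations among genes of at least 20 CPM, none passed an adjusted p of 0.05. In baboon liver Cyp1a1 and Ahr correlated with r = 0.885 (exact permutation p = 0.0167, two-sided, adjusted p = 0.0891) and rho = 0.771 (p = 0.103, exact permutation, adjusted p = 0.412). The r was 0.876 without the 2 livers farthest from the median of Cyp1a1. Cyp1a1 and Nr1i2 correlated with r = -0.746 (exact permutation p = 0.00833, adjusted p = 0.0666) and rho = -0.943 (exact permutation p = 0.0167, adjusted p = 0.134), and with r = -0.949 without the 2 farthest livers.

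In macaque liver Nr1i2 and Ahr correlated with r = 0.960 (exact permutation p = 0.00556, adjusted p = 0.0666) and rho = 0.943 (exact permutation p = 0.0167, adjusted p = 0.134), and with r = 0.948 without the 2 farthest. In baboon liver the same pair had r = -0.853 (exact permutation p = 0.0556, adjusted p = 0.178) and rho = -0.829 (exact permutation p = 0.0583, adjusted p = 0.311), and r = -0.768 without the 2 farthest. The signs in the species were opposite, and their difference was not tested. Cyp2e1 and Por in macaque liver had r = 0.868 (exact permutation p = 0.0556, adjusted p = 0.178), but r = -0.0211 without the 2 farthest. Relations of Cyp1a1 in macaque liver were not computed, because its levels fall into separate clusters, a choice made after its values were seen. The adjusted p-values do not cover that choice, nor the choice of the set from the same libraries, so no conclusion is drawn from them. The r values without the 2 farthest livers rest on the few livers left and are descriptions only.

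Across the 15 group means of log2(CPM + 1), the pairs of members with the highest Pearson r were Cyp1a1 and Cyp2e1 (r = 0.910, rho = 0.711) and Por and Ahr (r = 0.851, rho = 0.836). By Spearman rho the order differed, with Por and Ahr first and Por and Nr1i2 next (rho = 0.814). The pair with the lowest r was Sult1b1 and Ahr (r = -0.0823, rho = 0.239). Among 13703 other genes, the gene most like Cyp2e1 was ENSMUSG00000032079 (r = 0.984), and the gene most like Ahr was ENSMUSG00000048583 (r = 0.968). For Sult1b1 the closest gene reached r = 0.871 and for Cyp2g1 r = 0.913, with a Spearman rho of 0.178 for that of Cyp2g1. These correlations describe 15 groups that share species and the split between liver and other organs.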

How the data were processed

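RNA was extracted from frozen organs with a column kit, per the labels' protocols. Raw counts, which the authors deposited as a single table, filled 48 columns, all matched to samples by name, with 0 unmatched. Per the submitters' processing notes, STAR and featureCounts were used. No source used here gives versions, genome builds, annotation, strand setting or the way reads of 8 species reached mouse gene IDs. Low counts (1 to 20) were even in 94.3% to 99.4% of cases per library, so 2 deposited counts were taken as 1 read pair for intervals, and a count of 0 as up to 3 read pairs (6 counts).

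The members and lists were chosen with earlier results of these data known. The gene symbols of the members were given with their IDs. The wider list of drug metabolism genes, the marker lists and the parts of the naming rule that need symbols could not be applied, because neither the files nor the reference (baboon genes of Panubis1.0) pair mouse IDs with names. By that rule the members are always named, and the genes most like a member are those with the highest Pearson correlation over the 15 group means, among genes reaching a group mean of 5 CPM.

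CPM were computed from total counts. Fits used edgeR 4.0.16 in R 4.3.3 (TMM, filterByExpr defaults, quasi-likelihood F test, Benjamini-Hochberg adjustment over all tested genes, calls at an adjusted p under 0.05), with 10 comparisons in fits of the baboon, macaque or beaver libraries, of the 12 primate livers, of the 11 primate kidneys and of all 21 livers. The SE is the fold change divided by the root of F. All 7 members passed the filter on low counts, except Cyp2g1 and Sult1b1 in the kidneys of the primates. Some of the fits were run on simulated data, with a single dispersion for all genes and a small part of the genes raised. That simulation held no shift of the bulk of genes between organs, so it cannot show how the fits handle the shift seen here. Permutation tests used scipy 1.17.1. The labels call the samples replicates without naming separate animals, so p-values measure the spread between libraries, which may be technical.

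Replicate numbers recur across organs. The deviations of same-numbered libraries from their group means were correlated over genes of at least 20 CPM. The values were 0.121 to 0.473 for baboon kidney and liver, 0.273 to 0.447 for macaque kidney and liver and 0.113 to 0.211 for macaque cerebellum and liver. The own number gave the highest correlation in 6 of 6, 5 of 5 and 5 of 6 cases. For baboon brain and liver the values were 0.0592 to 0.150, with the own number highest in 3 of 6. The main fits, which gave the fold changes, SE and calls, did not use the numbers. They entered only as a block in an alternative setting.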

Additional observations from a re-analysis of the deposited data

Results flagged for a closer look

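Cyp2g1 in macaque cerebellum 6 reached 1.45 CPM, from 24 counts, while the other 5 cerebella held 0 to 0.488 CPM; the gap to the nearest library was 0.665 of the range, above Dixon's critical value. This was the only such library among 42 sets of a member and a group of 5 or 6 libraries, and chance gives about 1 in 20 sets.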

How the results depend on the processing

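The fitted log2 fold changes of the members were recomputed under 1227 combinations of member, comparison and alternative setting. Of these, 1172 moved by less than 1 SD between replicates. Total counts in place of TMM factors raised the 35 organ fold changes by 1.21 to 1.47 on the log2 scale, and all 35 stayed below 0; the cause lies in the scaling itself. Sign changes occurred in 15 of the 1227, in Cyp2e1, Por, Ahr and Nr1i2 between species, with fold changes near 0. TMM-scaled CPM, an alternative chosen after seeing the data, moved the number of members apart in sugar glider liver to 0. Over all genes, total counts split the calls of baboon kidney against liver into 11133 higher and 1122 lower, against 4907 and 4332 with TMM factors. For beaver brain against liver, leaving out single libraries gave 5519 to 8529 genes called, against 8576; the lower values leave 1 brain, assumed to vary like the livers. With the replicate number as a block, the calls were 9345 for baboon kidney, 11537 for baboon brain, 8864 for macaque kidney, 11527 for macaque cerebellum and 8121 for beaver brain, each within 1.5 times the count without it; of the members' fold changes only Cyp1a1 in macaque kidney moved by over 1.5 times, to -11.39. Between species the numbers pair no libraries (correlations of -0.187 to 0.106), and the block gave 2272 calls for liver and 2987 for kidney. The planned counts over the wider gene list were not run. Single-library species, and members under about 20 counts, are limited by depth.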
